A study of Mus musculus with 35 samples.

Results

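Claudins and their junction partners were followed through the conversion of mouse embryonic stem (ES) cells towards primitive endoderm (PrE). The set held every gene named Cldn followed by a number, 25 claudins, and 11 listed genes of the junction, of cell polarity and of epithelial splicing, together 36 of the 44853 genes of the induction table. The siRNA table, which holds only genes the study had classed as responsive to GATA6, listed 11 of them among 6275 genes, 5 of them claudins. The set was chosen by gene name and function, not by level.

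ES cells of the KH2 line (C57BL/6 x 129/Sv) carried a GATA6 transgene switched on by doxycycline (Dox), and grew with serum and LIF on mitotically inactive fibroblast feeders. RNA-seq libraries, 3 for each time, were made without Dox (0 h) and at 16, 24, 48, 72, 96 and 168 h in 1 µg/mL Dox. XEN cells, a wild-type line from extra-embryonic endoderm of another strain (CD1) grown without LIF, gave 2 libraries, so strain, medium and history cannot be told apart from lineage in any comparison with them. In the siRNA series the inducible cells received Dox for 48 h together with a non-targeting siRNA pool (siCTL, 6 libraries) or a pool against Pou5f1, the gene of OCT4 (siOct4, 6 libraries), so both groups carried the transgene and the drug. The methods call the 3 libraries of a time independent, without saying whether they came from separate clones or cultures, and p-values measure the spread between these libraries.

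Tight junctions seal the space between neighbouring epithelial cells. Claudins are membrane proteins that polymerise into the sealing strands; occludin, the MARVEL proteins and the junctional adhesion molecules lie beside them in the membrane, and zonula occludens proteins and cingulin tie them to actin from the inside. The PAR and Crumbs proteins set the apical border at which this belt forms. ES cells are an epithelium-like population, and PrE is an epithelium of the early embryo that lays down a basement membrane and gives rise to the visceral endoderm and the migratory parietal endoderm.

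Levels are TPM, the share of a gene among all transcripts of its library, corrected for length and scaled to the same total in each, so levels of different genes can be set side by side. A fold change is a difference of log2(TPM + 1) with its standard error (SE), which understates changes of low genes. A call required a Benjamini-Hochberg adjusted p under 0.05 in limma, over all genes tested, and a log2 change whose size exceeded 1 for the induction or 0.5 for the siRNA libraries. Depth is unknown, because TPM keeps no read number. In bulk RNA, fewer cells of a kind and less of a transcript per cell cannot be told apart.

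The labels held in the data. Gata6 was at 0.193 to 0.375 TPM at 0 h, 129 to 138 TPM at 16 h and 317 to 370 TPM at 168 h, and the summed level of 6 ES markers went from 3230–3380 TPM at 0 h to 76.6–157 TPM at 168 h while that of 8 PrE markers went from 40.9–54.7 to 13225–13861 TPM. All 10 markers of fibroblasts, the kind of cell used as feeder, were searched too: their summed level ran from 38.9 to 117 TPM at 0 h, from 142 to 297 TPM at 168 h and from 97.1 to 100.4 TPM in XEN cells, with 7 to 10 of the 10 at 1 TPM or more at 0 h and 9 to 10 at 168 h. With all times pooled, replicate 3 stood apart in 1 of those 10 markers. Thy1 was at 13.4 to 34.9 TPM in all 7 libraries numbered 3 and at 1.2 to 4.75 TPM in the 14 numbered 1 and 2. For every other marker these pooled ranges overlapped. Within a time, however, library 3 had the highest fibroblast sum at every time but 96 h. It was at 117 TPM against 50.8 and 38.9 TPM at 0 h and at 160 TPM against 63.8 and 73.7 TPM at 72 h. At 168 h it was at 297 TPM against 144 and 142 TPM. Only at 96 h did library 3 have the lowest sum (90.8 TPM against 127 and 122). Of the 18 junction genes tested, library 3 was below both others for 13 at 72 h, 12 at 0 h and 11 at 168 h. At 24 h it was above both for 10 and below for 6. The share over all genes was not counted. Values without replicate 3 are therefore given wherever they changed a call, and the part of feeder RNA in the results was not tested.

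Of the 36 genes, 18 reached a mean of 1 TPM in at least 1 group and were tested: 7 claudins and all 11 listed genes. The other 18 claudins stayed low, the highest in any library being Cldn5 at 0.457 TPM, and Cldn16 and Cldn34a were listed at 0 in every library. They were Cldn1, Cldn2, Cldn5, Cldn8, Cldn10, Cldn11, Cldn13, Cldn14, Cldn16, Cldn17, Cldn18, Cldn19, Cldn20, Cldn22, Cldn23, Cldn24, Cldn34a and Cldn34d. Cldn4 and Cldn6 made up most of the claudin transcripts of ES cells. The summed claudin level at 0 h was 174.6 ± 27.7 TPM (SD, n = 3), of which Cldn4 held 54.1% ± 1.46 and Cldn6 27.0% ± 0.911. After 168 h the share of Cldn4 was 3.55% ± 2.42 and that of Cldn6 56.0% ± 24.9 (SD, n = 3). Cldn6 then held 69.6% and 71.0% in libraries 1 and 2 but 27.2% in library 3. In XEN cells the share of Cldn4 was 0.776% ± 0.00101 (SD, n = 2) against 87.0% ± 0.333 for Cldn6. The summed level itself was 106.9 ± 46.9 TPM at 168 h, with library 3 at 53.1 TPM, and 127.0 ± 1.14 TPM in XEN cells.

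**Figure D1:**
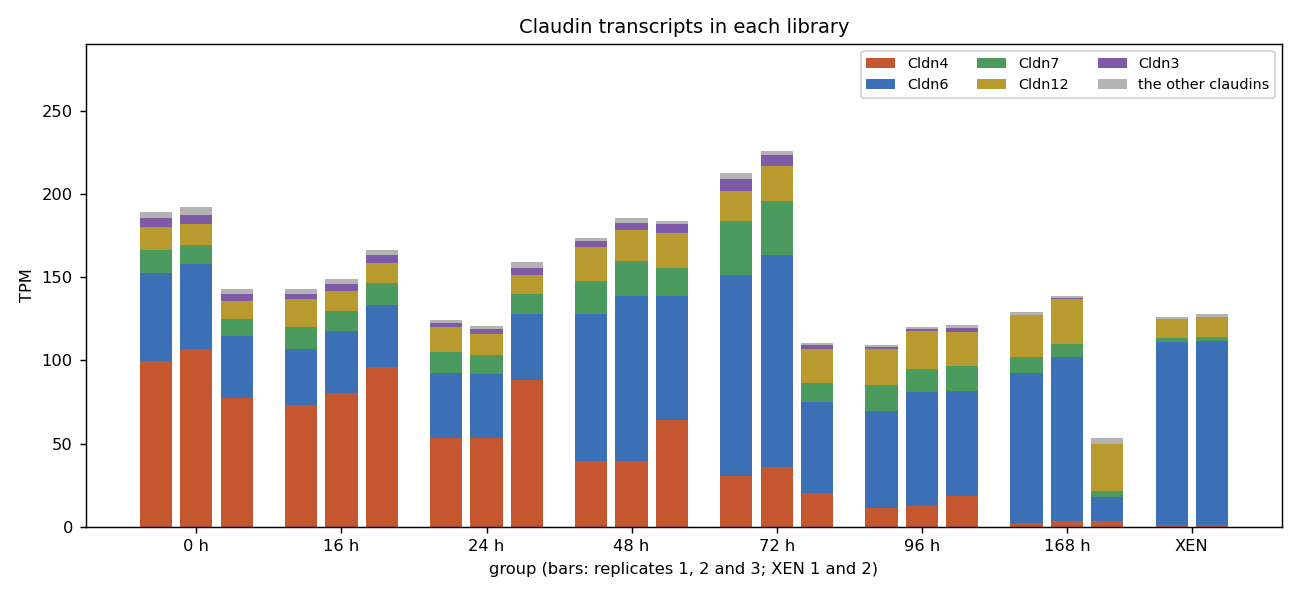
Summed TPM of all 25 claudins in each library of the induction series, with the groups along the x axis and the colours of each bar showing Cldn4, Cldn6, Cldn7, Cldn12, Cldn3 and the other claudins together. Cldn4 makes up most of each bar at 0 h and almost none in XEN cells, where Cldn6 holds 87.0%, and replicate 3 at 72 h and at 168 h is the shortest bar of its group.

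Cldn4 and Cldn3, claudins of many simple epithelia, lie 39.3 kb apart on chromosome 5 (mm10: Cldn4, chr5:134945119-134946934, minus strand; Cldn3, chr5:134986214-134987472, plus strand) and point away from each other. Both fell during induction. Tjp3, a zonula occludens scaffold (chr10:81273207-81291581, minus strand), and Cgn, encoding cingulin (chr3:94760069-94786492, minus strand), fell with them. The 250 bases before the RefSeq start of each (GRCm38.p6, the genome of mm10) are shown here for these 4 of the genes that fell, each written 5′ to 3′ on the strand of its gene, in lower case with motif matches in capitals. They include the 1 match found to each motif in the tested genes. Crb3 and Cldn9, which were also lower at 168 h, are not shown. Positions are chr5:134946935-134947184 (minus) for Cldn4, chr5:134985964-134986213 (plus) for Cldn3, chr10:81291582-81291831 (minus) for the upstream of the 2 listed starts of Tjp3 and chr3:94786483-94786732 (minus) for Cgn.
Cldn4: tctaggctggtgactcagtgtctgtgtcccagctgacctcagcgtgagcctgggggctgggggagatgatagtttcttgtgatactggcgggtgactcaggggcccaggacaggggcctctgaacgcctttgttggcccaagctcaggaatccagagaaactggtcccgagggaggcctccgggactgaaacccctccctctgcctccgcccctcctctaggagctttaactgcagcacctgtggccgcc
Cldn3: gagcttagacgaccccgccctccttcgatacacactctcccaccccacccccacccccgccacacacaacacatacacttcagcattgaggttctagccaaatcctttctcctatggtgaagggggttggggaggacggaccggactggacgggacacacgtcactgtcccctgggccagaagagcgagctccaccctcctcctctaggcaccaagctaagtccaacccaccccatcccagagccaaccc
Tjp3: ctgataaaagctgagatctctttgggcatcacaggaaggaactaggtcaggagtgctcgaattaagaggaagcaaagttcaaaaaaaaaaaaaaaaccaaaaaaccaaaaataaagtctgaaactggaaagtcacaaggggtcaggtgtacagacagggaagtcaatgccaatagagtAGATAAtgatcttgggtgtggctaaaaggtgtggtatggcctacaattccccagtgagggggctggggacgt
Cgn: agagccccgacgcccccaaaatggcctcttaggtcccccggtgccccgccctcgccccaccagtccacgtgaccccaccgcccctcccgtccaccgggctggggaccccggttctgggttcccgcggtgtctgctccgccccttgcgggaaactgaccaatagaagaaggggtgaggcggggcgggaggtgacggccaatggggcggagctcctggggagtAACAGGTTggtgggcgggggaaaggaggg
The letters searched on both strands were AGATAA, which factors such as GATA6 recognise, and AACCNGTT, which is recognised by the Grainyhead-like factors that regulate epithelial junction genes. AGATAA was found in 1 of the 23 promoters listed for 15 of the tested genes, that of Tjp3 shown above, and in 10% of all 32851 promoters of this length. AACCNGTT was likewise in 1 of the 23, that of Cgn, and in 1.8% of all promoters. The windows of Cldn3 and Cldn4 hold neither set of letters, nor do the 2 listed for Crb3. Only these exact letters were searched, so near variants of them were not counted.

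Cldn4 showed the largest change of the set. It was at 99.7, 107 and 77.2 TPM at 0 h, 30.7, 35.9 and 20.2 TPM at 72 h, 2.36, 3.46 and 3.36 TPM at 168 h, and 0.981 and 0.991 TPM in the 2 XEN libraries. No library of 48 h or later reached the lowest of 0 h. The log2 fold change from 0 h was -1.0 ± 0.24 (SE) at 48 h, at the edge of the call (adjusted p = 0.00163), and not called when replicate 1 or replicate 2 was left out (-0.84 and -0.79). It was -4.55 ± 0.24 at 168 h (adjusted p = 2.13e-12) and -5.58 ± 0.27 in XEN cells (adjusted p = 7.14e-13). Cldn3 was lower and later to fall: 5.10, 5.72 and 4.39 TPM at 0 h, 7.54, 6.63 and 2.44 TPM at 72 h, and 0.488, 0.569 and 0.436 TPM at 168 h. Its change was 0.01 ± 0.26 at 72 h, -1.28 ± 0.26 at 96 h (adjusted p = 0.00024) and -2.01 ± 0.26 at 168 h (adjusted p = 9.32e-07). Both XEN libraries listed Cldn3 at 0.

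Cldn6 and Cldn9, neighbours 137 bases apart on chromosome 17 whose transcripts run towards each other, did not move together. Cldn6 (chr17:23679249-23682446, plus strand) is a claudin of embryonic epithelia. It was at 53.0, 50.8 and 37.7 TPM at 0 h, 88.5, 99.4 and 74.3 TPM at 48 h, 121, 127 and 55.0 TPM at 72 h, 89.7, 98.6 and 14.4 TPM at 168 h, and 110 and 111 TPM in XEN cells. Replicates 1 and 2 were high from 48 h on, except at 96 h (58.2 and 68.6 TPM), and replicate 3 was far below them at 72 and 168 h. At 72 h its change was 1.00 ± 0.47 (adjusted p = 0.0689) with all libraries, and it was called with the replicate number as a block (adjusted p = 0.0361) and without replicate 3 (1.24 ± 0.08, adjusted p = 7.09e-08). In XEN cells it was 1.23 ± 0.52 (adjusted p = 0.0447), a call that was lost without replicate 1 (adjusted p = 0.206) or replicate 2 (0.182), with the block (0.0553) and with no filter on low genes (0.0773). Cldn9 (chr17:23682584-23684026, minus strand) never reached 5 TPM. It was at 1.05 to 3.12 TPM at 0 h and at 0.0508 to 0.365 TPM at 168 h, and fell by 1.38 ± 0.25 on the log2 scale (adjusted p = 4.63e-05). At 24 h its difference was -0.76 ± 0.25, not called, and without replicate 3 it was -1.28 ± 0.13 and called (adjusted p = 1.39e-05).

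Cldn7 (chr11:69964779-69967885, plus strand), another epithelial claudin, was high in the middle of the series and low at its end. It was at 13.3, 11.5 and 9.77 TPM at 0 h, 32.2, 32.6 and 11.2 TPM at 72 h, 9.78, 7.85 and 3.60 TPM at 168 h, and 2.07 and 2.01 TPM in XEN cells. Its 72 h change of 0.94 ± 0.30 (adjusted p = 0.00976) was under the fold needed for a call, and was 1.32 ± 0.11 (adjusted p = 3.38e-07) without replicate 3. From 72 to 168 h it fell by 1.65 ± 0.30 on the log2 scale (adjusted p = 0.000147), and XEN cells were below 0 h by -2.03 ± 0.33 (adjusted p = 2.2e-05). Cldn12 (chr5:5489537-5514958, minus strand), an atypical claudin that lacks the motif by which others bind zonula occludens proteins, was also higher at 48 and 72 h, by 0.65 ± 0.12 and 0.63 ± 0.12 (not called), but parted from Cldn7 after 72 h. Its libraries read 14.3, 12.5 and 10.8 TPM at 0 h and 25.1, 26.7 and 28.2 TPM at 168 h, a change of 1.04 ± 0.12 (adjusted p = 2.82e-07), which was 0.90 ± 0.14 and not called without replicate 3 and 0.86 and not called when libraries were rescaled by median of ratios. XEN cells, at 11.8 and 12.4 TPM, were at the level of 0 h. Summed markers of 2 other cell types were, like Cldn7, higher at 72 h than at 0 h and lower at 168 h than at 72 h. Unlike Cldn7, both sums stayed above 0 h at 168 h, and that of visceral endoderm did so in XEN cells too. In replicate 3 at 72 h the visceral endoderm sum was 837 TPM while Cldn7 was at 11.2 TPM. The summed level of 8 visceral endoderm markers was 3.76 to 4.52 TPM at 0 h, 837 to 1029 TPM at 72 h, 659, 612 and 294 TPM in replicates 1, 2 and 3 at 168 h, and 74.6 to 78.6 TPM in XEN cells, with 1, 4 to 6, 5 to 8 and 4 to 5 of the 8 at 1 TPM or more. That of 6 trophectoderm markers was 3.30 to 3.41, 27.2 to 29.5, 7.83 to 9.88 and 1.74 to 1.75 TPM in the same groups, with 1, 4 to 5, 3 to 4 and none of the 6 at 1 TPM. Their part in the levels of Cldn7 was not tested. Cldn15, the remaining claudin tested, was at 0.183 to 1.85 TPM in all libraries and was called in no comparison.

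**Figure D2:**
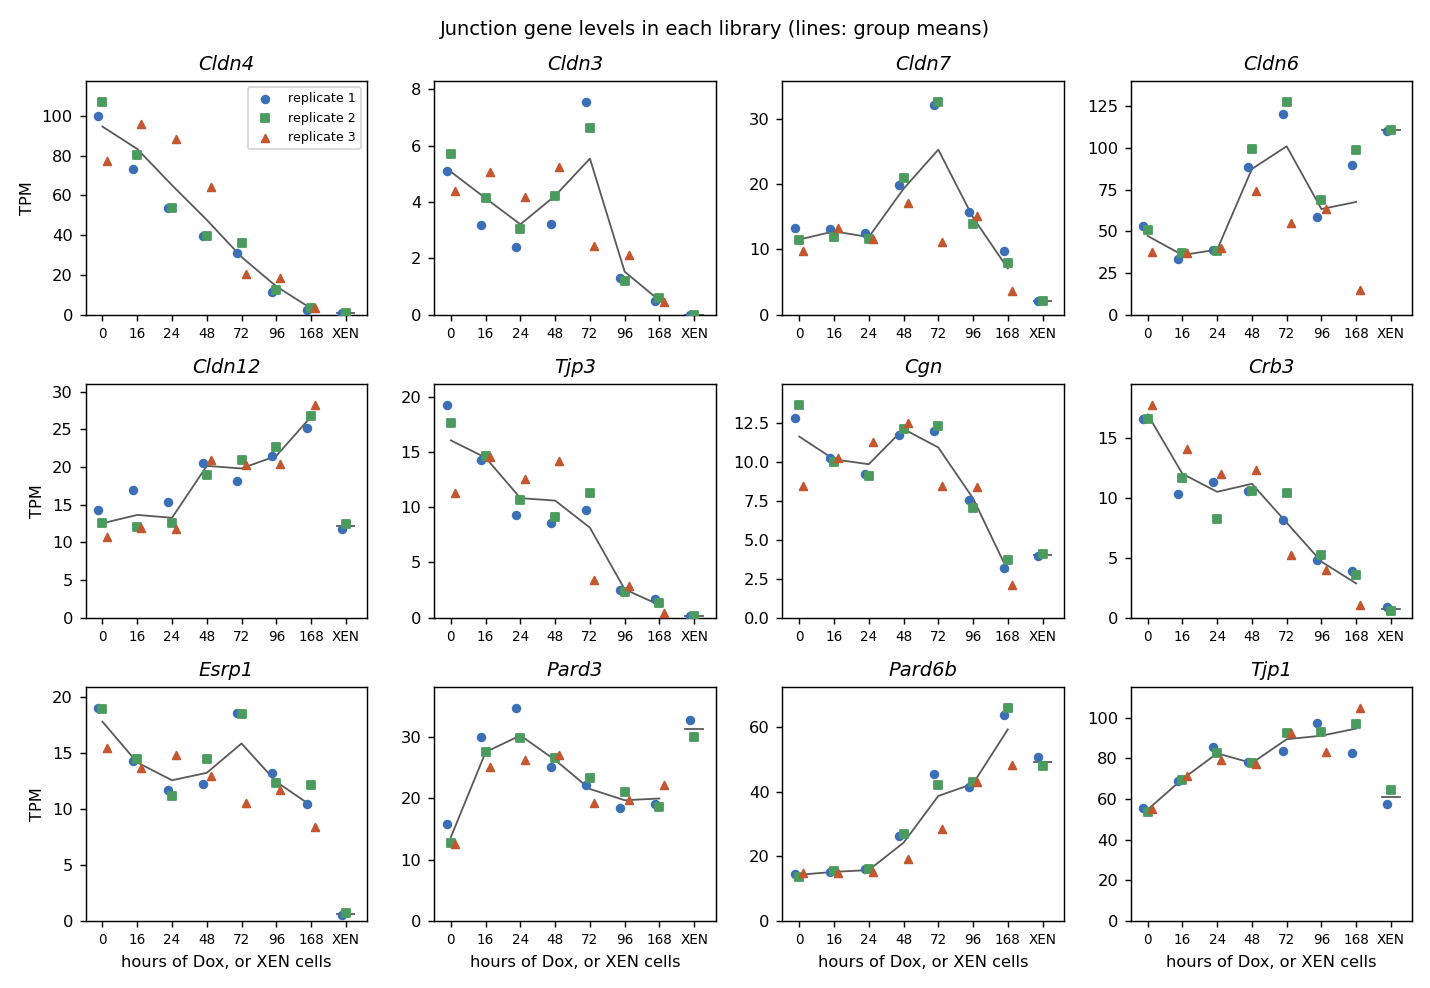
TPM of 12 junction genes (1 panel each, y axes from 0) in every library, against hours of Dox or XEN cells, with a marker for each replicate number and lines through the group means. Cldn4, Tjp3 and Crb3 go down along the series and Pard6b goes up, while Cldn6 and Cldn7 peak at 72 h in replicates 1 and 2 but not in replicate 3.

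The scaffolds under the membrane did not move together. Tjp3 was at 19.2, 17.6 and 11.3 TPM at 0 h and at 1.70, 1.3 and 0.426 TPM at 168 h, and fell by 3.01 ± 0.30 on the log2 scale (adjusted p = 2.63e-08). The groups did not overlap, and XEN cells were lower still at 0.172 and 0.142 TPM. Cgn was at 12.8, 13.6 and 8.43 TPM at 0 h, at 12, 12.3 and 8.46 TPM at 72 h and at 3.17, 3.71 and 2.12 TPM at 168 h. Its change was -0.07 ± 0.17 at 72 h (adjusted p = 0.721) and -1.65 ± 0.17 at 168 h (adjusted p = 2.76e-08), so that its fall lay after 72 h. Tjp1, the archetypal zonula occludens scaffold, was the most abundant of the 11 listed genes: 55.6, 53.8 and 55.0 TPM at 0 h, 82.5, 97.1 and 105 TPM at 168 h, and 57.4 and 64.6 TPM in XEN cells. Its level at 168 h lay above 0 h in every library, by 0.77 ± 0.08 (adjusted p = 3.07e-08), short of the fold needed for a call.

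Of the other membrane proteins of the junction, none was called in any comparison. F11r, encoding the adhesion molecule JAM-A, was at 27.7, 26.5 and 28.5 TPM at 0 h and at 42.1, 52.7 and 45.9 TPM at 168 h, a difference of 0.74 ± 0.09 (adjusted p = 3.43e-07) that was also under that fold. Ocln, encoding occludin, was at 1.00 to 5.10 TPM across all 23 libraries, and at 168 h read 3.79 and 5.10 TPM in replicates 1 and 2 but 1.00 TPM in replicate 3. Marveld2 (tricellulin, found where 3 cells meet) lies 43.2 kb from Ocln on chromosome 13. It had its highest difference at 96 h, 0.71 ± 0.16 (adjusted p = 0.000548). Marveld3, another MARVEL protein, was at 1.17 to 1.35 TPM at 0 h and 0.132 to 0.448 TPM at 168 h, a difference of -0.83 ± 0.14 (adjusted p = 2.8e-05).

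The polarity genes moved in opposite directions. Pard6b, an adaptor that links the PAR complex to atypical protein kinase C, was at 14.4, 13.7 and 14.7 TPM at 0 h, 45.4, 42.3 and 28.4 TPM at 72 h, 63.9, 65.9 and 48.2 TPM at 168 h, and 50.6 and 47.9 TPM in XEN cells. It rose by 1.35 ± 0.15 at 72 h (adjusted p = 1.22e-07) and 1.97 ± 0.15 at 168 h (adjusted p = 3.11e-10), with no overlap between groups. Pard3, the scaffold of the same complex, moved first. It was at 15.8, 12.7 and 12.5 TPM at 0 h, 30.0, 27.6 and 25.1 TPM at 16 h, 34.7, 29.9 and 26.3 TPM at 24 h, 19.2, 18.7 and 22.1 TPM at 168 h, and 32.7 and 30.0 TPM in XEN cells. The change was 0.97 ± 0.11 at 16 h (adjusted p = 3.7e-06), just under the fold needed, 1.09 ± 0.11 at 24 h (adjusted p = 3.49e-07) and 0.52 ± 0.11 at 168 h (adjusted p = 0.000264). Crb3, the Crumbs protein of epithelial cells, was below its 0 h libraries at every later time. Its mean was 0.619 of that of 0 h at 24 h and 0.658 at 48 h, and it was lower from 72 h on. Crb3 was at 16.6, 16.6 and 17.7 TPM at 0 h, 8.15, 10.4 and 5.24 TPM at 72 h, 3.92, 3.56 and 1.08 TPM at 168 h, and 0.900 and 0.567 TPM in XEN cells. It fell by 1.05 ± 0.25 at 72 h (adjusted p = 0.00127), a call lost without replicate 3 (-0.79 ± 0.15), and by 2.32 ± 0.25 on the log2 scale at 168 h (adjusted p = 9.89e-08).

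Esrp1 is no junction protein but an RNA-binding regulator of epithelial splicing. Among the 18 it had the largest difference between XEN cells and 168 h. Its libraries read 18.9, 18.9 and 15.4 TPM at 0 h and 10.4, 12.1 and 8.33 TPM at 168 h, against 0.516 and 0.718 TPM in XEN cells. The change at 168 h was -0.74 ± 0.17 (adjusted p = 0.00058), not called, and the difference between XEN cells and 168 h was -2.79 ± 0.19 (adjusted p = 7.14e-10).

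The number of called genes grew with time, as it did over all genes. At 16 h limma called none of the 18 tested genes, 3 having an unadjusted p under 0.05, against 2.77% of all 15057 genes tested. At 24 h it called 1, Pard3, which rose (5.68% of all genes), and at 48 h also 1, Cldn4, which fell (16.4%). At 72 h it called 3 of 18, 1 higher and 2 lower, or 16.7% against 26.2% of all genes. At 96 h it called 6, 1 higher and 5 lower, 33.3% against 29.5%. At 168 h it called 8, with Pard6b and Cldn12 higher and Cldn3, Cldn4, Cldn9, Tjp3, Cgn and Crb3 lower, 44.4% against 39.1%. The share of called genes is thus near that of all genes, and only the direction is described: the median change of the 18 at 168 h was -0.295, against 0.0876 over all genes. XEN cells differed from 0 h in 11 of the 18, 3 higher (Cldn6, Pard3, Pard6b) and 8 lower (Cldn3, Cldn4, Cldn7, Cldn9, Tjp3, Cgn, Crb3, Esrp1), 61.1% against 37.6% of all genes. All comparisons with 0 h share the same 3 libraries.

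**Figure D3:**
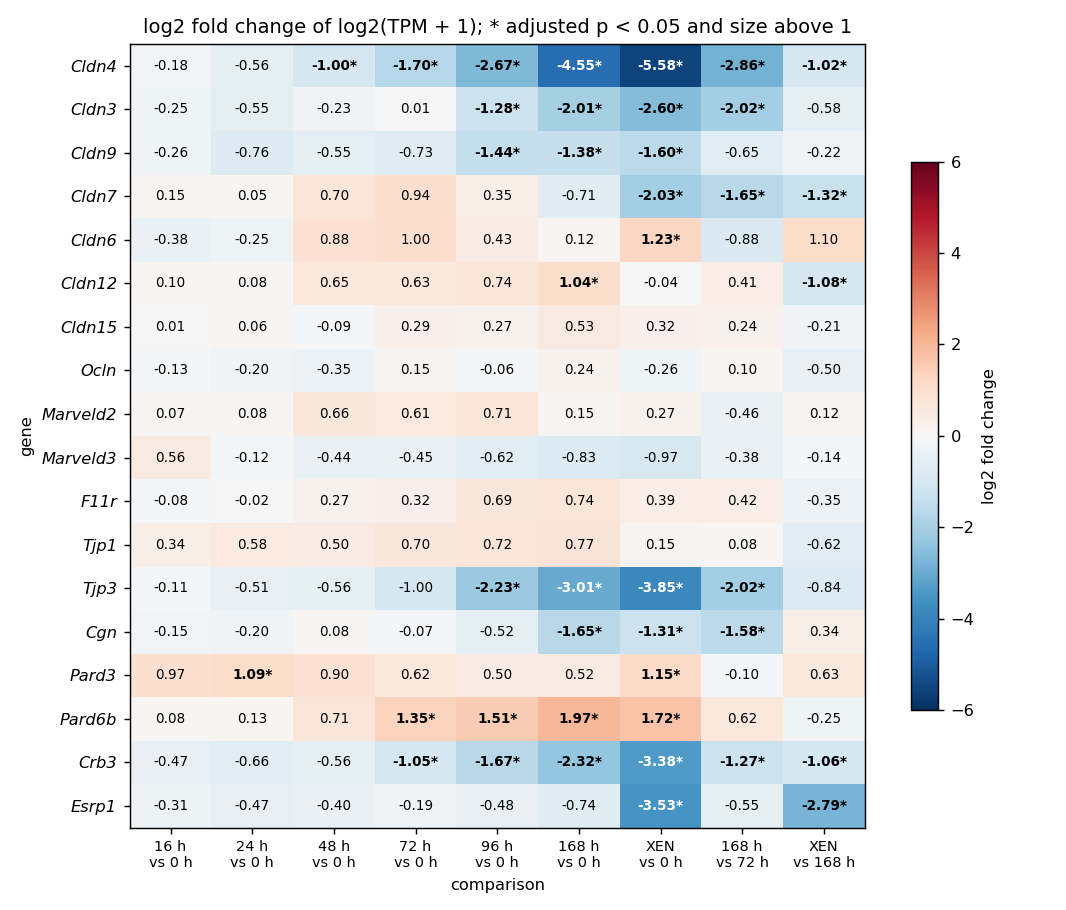
Heat map of the log2 fold change of the 18 tested genes (rows) in 9 comparisons (columns), red for higher and blue for lower, with calls in bold with an asterisk. The blue of Cldn4, Tjp3 and Crb3 deepens from 72 h to XEN cells, and the row of Esrp1 is called only in the columns that contain XEN cells.

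Much of the fall on the log2 scale came after 72 h. In TPM, Cldn4 was by then already at 0.306 of its 0 h mean and Crb3 at 0.467. From 72 to 168 h, 6 of the 18 were called and all 6 were lower (12.1% of all genes were called in either direction): Cldn4 at -2.86 ± 0.24, Cldn3 at -2.02 ± 0.26, Tjp3 at -2.02 ± 0.30, Cldn7 at -1.65 ± 0.30, Cgn at -1.58 ± 0.17 and Crb3 at -1.27 ± 0.25, with adjusted p-values from 1.47e-08 to 0.000396. Without replicate 3 Cldn9 was called too, at -1.03. Comparing XEN cells with 168 h, 5 of 18 were called and all 5 were lower in XEN cells (13.9% of all genes were called): Esrp1, Cldn7 at -1.32 ± 0.33, Cldn12 at -1.08 ± 0.14, Crb3 at -1.06 ± 0.28 and Cldn4 at -1.02 ± 0.27. The median of all genes in that comparison was -0.139, and after rescaling it was -0.0222 and 2 of the 5 were called, Esrp1 and Cldn7. Cldn4 was not called without replicate 3 (-0.96), whereas Tjp3 then was (-1.11, against -0.84 with all libraries).

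Other genes of the junction and of epithelial regulation were counted from 2 lists. Of 31 tested junction genes outside the set, 14 were higher and 6 lower at 168 h than at 0 h, 64.5% against 39.1% of all genes, with a median change of 0.89. The 3 largest rises were Emp2 and Pmp22, membrane proteins of the same superfamily as claudins, at 5.64 ± 0.14 and 3.39 ± 0.23, and Amot, encoding the polarity and Hippo pathway adaptor angiomotin, at 4.01 ± 0.16. The 3 largest falls were Ildr1, a protein of tricellular junctions, at -3.93 ± 0.21, Jam2, an adhesion molecule, at -2.98 ± 0.22, and Ybx3, a Y-box factor that binds zonula occludens proteins, at -2.34 ± 0.12. Their adjusted p-values ran from 5.95e-17 (Emp2) to 2.32e-10 (Jam2). Ildr1 went from 15.6, 16.4 and 17.6 TPM to 0.0407, 0.335 and 0.101 TPM and was listed at 0 in both XEN libraries.

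Of 14 tested epithelial regulators and partners, 3 were higher and 7 lower at 168 h, 71.4% against the same 39.1%, with a median change of -0.67. The largest falls were those of Grhl2 (-4.58 ± 0.15) and Grhl3 (-3.43 ± 0.22), Grainyhead-like factors, and of Cdh1, the gene of E-cadherin (-3.21 ± 0.13). Grhl2 was at 25.3, 28.0 and 29.9 TPM at 0 h, 14.4, 18.4 and 16.1 TPM at 16 h, 2.57, 2.41 and 2.54 TPM at 48 h and 0.173, 0.254 and 0.182 TPM at 168 h. It was thus below its 0 h range from the first time on. Cldn4 still overlapped its own at 16 and 24 h, whereas Crb3 and Esrp1 were already below theirs at 16 h. A link between Grhl2 and these genes was not tested. The 3 higher genes were Elf3, an epithelial ETS factor (2.27 ± 0.12), Esrp2, the paralog of Esrp1 (1.13 ± 0.17), and St14, the membrane protease matriptase (1.06 ± 0.13). Esrp2 was at 4.91, 5.6 and 4.47 TPM at 0 h and at 22.4 and 22.3 TPM in XEN cells, the reverse of Esrp1. Elf3 reached 271 to 310 TPM at 72 h, was at 97.8 to 132 TPM at 168 h and at 3.30 and 3.18 TPM in XEN cells.

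When Oct4 was depleted during the first 48 h of GATA6 induction, Cldn3 and Cldn4 were higher. Pou5f1 itself was at 782 to 1194 TPM with siCTL and 282 to 387 TPM with siOct4, a log2 change of -1.52 ± 0.14 (adjusted p = 5.2e-05). Libraries with the same number varied together, so that differences within the 6 pairs are given, but the pairs may not be independent: 7 of the 12 libraries correlated best, among those of the other group, with their own number and the other 5 with the neighbouring one of 1 and 2, 3 and 4, or 5 and 6. Pairs that shared a source would make the blocked p-values too small, which was not tested. Cldn3 was at 0.569, 1.07, 0.373, 0.566, 1.87 and 1.67 TPM with siCTL and at 4.73, 5.08, 1.24, 2.96, 9.83 and 12.3 TPM with siOct4. It was higher in 6 of 6 pairs, although the groups overlapped, and its log2 change of 1.62 ± 0.38 (adjusted p = 0.0343) was the 1 call among the 11 tested genes, against 2.67% of all 6264 genes. With the pair as a block its adjusted p was 0.000901. Without the block that call was lost when any replicate but the third was left out (adjusted p from 0.0859 to 0.142), and with the block it was kept in each case (0.00179 to 0.00506).

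Cldn4 differed widely between control libraries and little in its change within pairs. It was at 13.9, 11.1, 3.52, 4.03, 38.7 and 31.9 TPM with siCTL and at 31.6, 27.4, 11.4, 13.5, 78.4 and 87.8 TPM with siOct4. Its within-pair differences ran from 1.00 to 1.52 on the log2 scale, and the change of 1.3 was not called without the block (SE 0.61, adjusted p = 0.363) and was called with it (SE 0.14, adjusted p = 0.00034). Crb3 behaved likewise: 5.0, 3.47, 1.59, 2.15, 5.41 and 5.73 TPM with siCTL and 8.24, 9.41, 3.96, 3.04, 11.1 and 13.8 TPM with siOct4. It was higher in 6 of 6 pairs by 0.358 to 1.22, and its change of 0.86 had an adjusted p of 0.271 without and 0.00966 with the block. The blocked fit thus called 3 of the 11, all higher, against 8.57% of all 6264 genes.

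**Figure D4:**
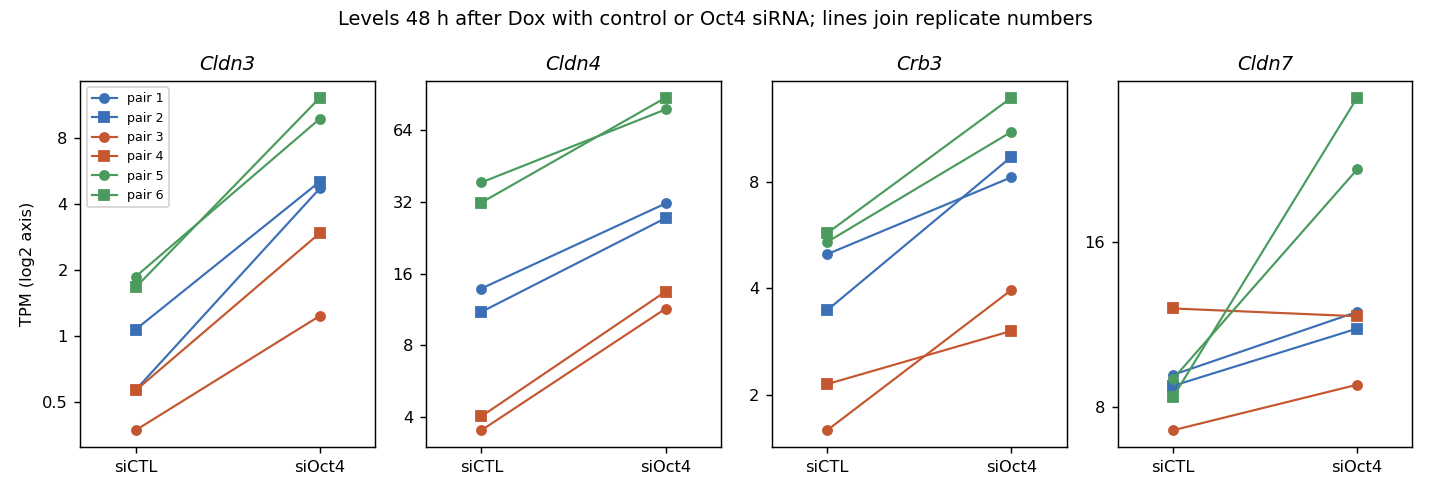
TPM on a log2 axis of Cldn3, Cldn4, Crb3 and Cldn7 with control (left) and Oct4 siRNA (right), each line joining the 2 libraries of a replicate number and pairs 1 and 2, 3 and 4, and 5 and 6 sharing a colour. All 6 lines go up for Cldn3, Cldn4 and Crb3, and the lines of Cldn4 are close to parallel although their starting levels run from 3.52 to 38.7 TPM.

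The other 8 genes were not called with or without the block. Cldn7 was at 9.14, 8.73, 7.24, 12.1, 8.98 and 8.32 TPM with siCTL and at 11.9, 11.1, 8.77, 11.7, 21.7 and 29.3 TPM with siOct4, higher in 5 of 6 pairs, with the gap in pairs 5 and 6 well above the rest. Its change of 0.63 ± 0.27 had an adjusted p of 0.299, of 0.117 with the block and of 0.0178 after rescaling, which called it. Tjp3 was higher in 6 of 6 pairs by 0.0635 to 0.599 (adjusted p = 0.83, and 0.261 with the block). Pard6b was higher in 5 of 6 (0.43 ± 0.27, adjusted p = 0.548, and 0.136 with the block) and Pard3 lower in 4 of 6 (-0.46 ± 0.35, adjusted p = 0.63). Cldn6, Cgn and Marveld2 each split 3 to 3 between pairs, and Cldn12 was higher in 4 and lower in 2, with mean differences from -0.04 to 0.20. Cldn7 and Pard6b were both called when a trend with gene length was removed as well as the block fitted (adjusted p = 0.0455 and 0.00875), as were 10.1% of all genes. For Cldn6 the differences ran from -0.749 in pair 4 to 0.960 in pair 6, so that the pairs did not share a direction.

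**Figure D5:**
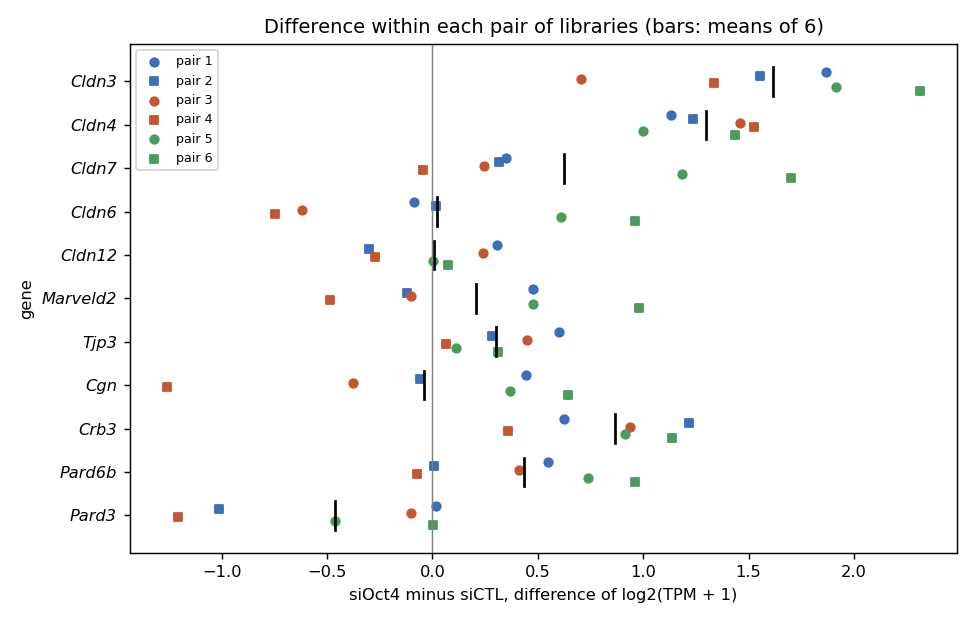
Difference of log2(TPM + 1) between the siOct4 and siCTL libraries of each pair (points) for the 11 genes of the siRNA table, with the mean of the 6 pairs as a bar. The points of Cldn3, Cldn4, Crb3 and Tjp3 all lie above 0, and those of Cldn6 spread from -0.749 to 0.960.

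Other values moved with the claudin difference between the siRNA groups. Gata6 was lower with siOct4 in 6 of 6 pairs, by 0.0501 to 1.11 on the log2 scale, and its change of -0.50 ± 0.22 had an adjusted p of 0.326, or 0.0503 with the block. This level adds transcripts of the transgene to those of the endogenous gene. The paper measured endogenous Gata6 separately and reported it lower with Oct4 siRNA. Markers of visceral endoderm separated the groups: the 4 in this table summed to 242, 294, 185, 744, 501 and 445 TPM with siCTL and to 61.8, 32.5, 49.2, 92.3, 145 and 111 TPM with siOct4, with 4 and 3 to 4 of them at 1 TPM or more. No siOct4 library reached the lowest siCTL library. Cubn and Amn, which encode an endocytic receptor and its partner, fell by 2.55 ± 0.46 and 1.44 ± 0.30 (adjusted p = 0.00641 and 0.0197). The 8 PrE markers summed to 2253 to 6225 TPM with siCTL and 1494 to 3198 TPM with siOct4 and the 6 parietal endoderm markers to 4266 to 6400 and 2972 to 4879 TPM, with every marker of both lists at 1 TPM or more and overlap between the groups. Gata4, one of the PrE markers, was lower in 6 of 6 pairs (-0.60 ± 0.19, adjusted p = 0.136, and 0.00592 with the block). Sox17, another of them, split 3 to 3 between pairs, with differences from -0.589 to 0.756. The median of all 6264 genes was -0.124, and after rescaling, which brought it to 0.00801, Cldn3 and Cldn7 were the 2 of the 11 genes called, against 4.75% of all genes. Trophectoderm is another epithelium of the blastocyst, with claudins and keratins of its own. The summed level of its 4 markers in this table was 10.8 to 21.8 TPM with siCTL and 13.4 to 81.0 TPM with siOct4, highest in pairs 5 and 6, with 2 to 4 and 3 to 4 of them at 1 TPM or more. Krt7 and Hand1, both among these markers, were each higher in 6 of 6 pairs. The change of Krt7 was 1.62 ± 0.48 (adjusted p = 0.102, and 0.00034 with the block). Cdx2, a defining factor of that lineage, was at 0.699 to 1.38 TPM with siCTL and 0.753 to 4.15 TPM with siOct4. It was lower with siOct4 in pair 3. The list was split: in pair 4 its sum went from 18.9 TPM with siCTL to 16.3 TPM with siOct4. Krt7, Hand1 and Cdx2 were each higher in that pair, so the remaining marker was lower there. The 6 fibroblast markers in this table summed to 195, 181, 31.1, 217, 41.7 and 49.9 TPM with siCTL and to 66.9, 62.5, 40.5, 32.9, 219 and 198 TPM with siOct4, with 6 of 6 at 1 TPM or more with siCTL and 5 to 6 with siOct4. They were thus high in siCTL libraries 1, 2 and 4 and in siOct4 libraries 5 and 6, and the groups overlapped. The part of Gata6, of endoderm or trophectoderm cells or of feeder RNA in the claudin result was not tested.

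Of 25 junction genes outside the set in this table, 2 were called and both were lower with siOct4, Crb2, a Crumbs protein, at -1.56 ± 0.26 (adjusted p = 0.00384) and Jam3, an adhesion molecule, at -1.10 ± 0.19 (adjusted p = 0.00424). With the block 4 were called, all lower, the others being Amot (-0.87, adjusted p = 0.0138) and Prkcz, an atypical protein kinase C (-0.53, 0.0408). None of 10 epithelial regulators was called by limma without the block, and 3 were with it: Prss8 higher (0.68, adjusted p = 0.0196) and Elf3 (-0.90, 0.00218) and Klf5 (-0.86, 0.00292) lower. Grhl2, at 0.237 to 4.62 TPM over the 12 libraries, was higher in 6 of 6 pairs by 0.139 to 0.454 and was not called (adjusted p = 0.802, and 0.221 with the block).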

How the data were processed

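Genes were taken by name from 2 deposited tables of TPM. Per the labels and methods, the libraries were stranded and polyA-selected, the read pairs were mapped on mm10 by STAR and summed per gene by RSEM, and the authors converted these estimates into TPM, having left out outliers seen in a principal component analysis. Tool versions and annotation are not given in the sources used here. The siRNA table also holds the authors' group means and text classes of their own tests, not used here. Where a symbol had several rows (60 symbols), only that with the highest mean entered. The test covered genes averaging 1 TPM or more in any group, 15057 in the induction and 6264 in the siRNA table, with limma 3.58.1 in R 4.3.3 (lmFit, eBayes with trend and robust) on log2(TPM + 1), with 1 coefficient per group. The scripts were tested on simulated data.

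The genes, the lists and the tests were chosen with earlier results of these data known. Genes described with values are those averaging 5 TPM or more in any group and called in at least 1 comparison. Those at 20 TPM or more at 0 h and never called are named as such, and the others by their range; further values of Cldn9, Ocln, Marveld2, Marveld3 and Cldn15 were added after seeing them. Of the 2 further lists, the 3 largest rises and falls at 168 h and the genes called in the siRNA series are named, and other values given (Grhl2, Krt7, Hand1, Cdx2, Cubn, Amn, Gata4, Sox17, Thy1) were picked after seeing them. The check of pairing used the correlation, over genes, of deviations from group means: same-numbered siRNA libraries had r from 0.236 to 0.707 and differently numbered ones from -0.556 to 0.459, and the study names 6 independent knock-downs, so blocked values are given where they change a call. In the induction series same-numbered libraries had r from -0.186 to 0.219, which did not meet the criterion of over 0.1 in every pair. Alternatives were rescaling by median of ratios, no filter, a pseudocount of 0.1, fits of 2 groups, the replicate block and leaving out each replicate. A gene length correction and the block combined with leaving out a replicate were added later, with the data in view. Positions are from GENCODE M21, promoters from RefSeq (GRCm38.p6), which listed 43 for 30 of the 36 genes. Protein features were not analysed here. As TPM hold no read numbers, depth is unknown.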

Additional observations from a re-analysis of the deposited data

Results flagged for a closer look

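In the siRNA series, 22 sets of 6 libraries were searched for an outlying library (11 genes in 2 groups), and chance alone would mark about 1 in 20 of them. The screen marked 1: Marveld2, the gene of tricellulin, was at 1.5 on the log2(TPM + 1) scale (1.83 TPM) in siCTL library 3, with the other 5 control libraries between 2.06 and 2.38, a gap of 0.632 of the whole range.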

How the results depend on the processing

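No called gene changed direction under any alternative run. In the induction series the number of genes called moved by more than 1.5 times in these cases: at 16 h from 0 to 1 (Pard3) with a pseudocount of 0.1, at 72 h from 3 to 5 with that pseudocount, and for XEN cells against 168 h from 5 to 2 with rescaling. With each replicate left out in turn the count ran from 0 to 1 at 16 h, 1 to 2 at 24 h, 0 to 1 at 48 h and 2 to 5 for XEN cells against 168 h; the 0 at 48 h, without replicate 2, had 6 genes at an unadjusted p under 0.05, and the 1 at 48 h without replicate 1 was Pard3, not Cldn4. Leaving out replicate 1 or 2 leaves 1 XEN library, which is then assumed to vary like the other groups. The induction replicate numbers did not meet the criterion for pairing (mean r of same-numbered libraries 0.033), although the libraries numbered 3 share high Thy1. With a replicate block Cldn6 was called at 72 h (adjusted p = 0.0361), and the calls of Cldn6 in XEN cells against 0 h (adjusted p = 0.0553) and of Cldn4 in XEN cells against 168 h (-0.95) were lost. In the siRNA series libraries were paired by number, although the pairs may not be independent. There 1 gene was called in the fit without pairing and 2 with rescaling. The replicate block called 3, and the block with a gene length correction called 5, with Cldn7 and Pard6b. With each replicate left out the count ran from 0 to 1 without the block and was 3 each time with it. Single called genes stayed called with the same sign in 307 repeats in the induction series and 13 in the siRNA series, and lost the call with the same sign in 21 and 5. The cause of these changes was not tested. TPM hold no depth, so how far read number limits the low claudins is unknown.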
